A study of Mus musculus with 10 samples.

Results

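The angiopoietin and VEGF axis is the set of ligands and receptors through which blood vessels are kept stable or made to grow. It was followed here through 10 named genes out of 24391 gene names in the count tables: the ligands Angpt1, Angpt2, Vegfb, Vegfc and Pgf, the receptors Tek, Tie1, Flt1 and Kdr, and the co-receptor Eng. RNA was sequenced from whole bilateral hippocampus of 10 male mice, 10 to 14 weeks old, of a strain written C56BL/6J in the study's methods, with 1 library per mouse. In the 4 SAH mice a subarachnoid hemorrhage was induced by perforating the circle of Willis on 1 side with a filament, and tissue was taken on day 4. The 3 Sham mice had the operation without perforation, the 3 Naive mice had none, and both were pooled as 6 control mice, as the study pooled them. The labels state that no drug was given and name no engineered allele. Mice are named by the animal numbers of the labels, SAH mice 1 to 4, Sham mice 5 to 7 and Naive mice 8 to 10.

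Each library held between 19743388 and 27254655 counted read pairs, and 14993 genes had enough counts to be tested, all 10 genes of the axis among them. All 10 markers of neurons passed the same filter, among them Slc17a7 of excitatory neurons and Prox1 of dentate granule cells, as the labelled tissue should hold. CPM is a count scaled to a common library total, and a gene is called higher or lower at an adjusted p under 0.10 in edgeR's quasi-likelihood test, with the adjustment made over all genes tested. SAH mice 3 and 4 and Sham mouse 7 stood apart in markers of choroid plexus epithelium, a tissue that lies in the ventricle beside the hippocampus. Their scores, the mean log2 difference of 11 marker genes from the control mean, were 2.43, 2.08 and 2.11, against a highest score of 0.63 in the other 7 mice. Fold changes, ratios and counts of called genes for the axis, and the endothelial and meningeal markers, are therefore also given without these 3 mice, a choice made after the data were seen.

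Angiopoietins act on the receptor tyrosine kinase TIE2, encoded by Tek and carried by endothelial cells. Angpt1, made by pericytes and other perivascular cells, activates it and keeps vessels tight. Angpt2, made mainly by endothelial cells, competes with Angpt1 and is known for loosening vessels before they sprout or regress. Tie1 encodes a related receptor that pairs with TIE2. In the VEGF family, Kdr encodes VEGFR2, the main signalling receptor of endothelial growth, and Flt1 encodes VEGFR1, which binds its ligands tightly, signals weakly and can act as a decoy. Vegfb and Pgf encode ligands of VEGFR1, and Vegfc encodes a ligand of VEGFR3 and VEGFR2. Eng encodes endoglin, an endothelial co-receptor for ligands of the TGF-β family.

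The 250 bases upstream of the first exon were read for each gene from the mm9 genome, and 6 short motifs were searched on both strands: AGGAAG and CCGGAA, cores bound by ETS factors, ACGTG and GCGTG of hypoxia response elements, TGTTTA of forkhead factors and AGATAA of GATA factors. The motif AGGAAG was present in 4 of the 10 promoters, those of Angpt2, Tie1, Flt1 and Eng, and in 28.8% of the 24271 promoters of the same length. The promoter of Eng is shown because this window holds no annotated exon and carries the motif on both strands. Capitals mark AGGAAG or its reverse complement. The window is chr2:32501865-32502114 in mm9, read on the plus strand, 5′ to 3′.
Eng: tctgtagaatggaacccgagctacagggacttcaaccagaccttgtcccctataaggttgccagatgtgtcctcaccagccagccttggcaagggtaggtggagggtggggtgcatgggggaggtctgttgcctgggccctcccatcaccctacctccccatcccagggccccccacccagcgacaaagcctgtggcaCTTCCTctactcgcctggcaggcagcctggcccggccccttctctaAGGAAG
It holds 2 matches, one of them at the last bases before the first exon. Of the other motifs, CCGGAA was found in the promoter of Kdr alone among the 10 (14.6% of all promoters), GCGTG in 4 (33.1%), TGTTTA in 2 (10.7%), and ACGTG and AGATAA in 0 of 10 (17.5% and 9.08%). These matches describe letters in a window, and binding was not tested.

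In SAH mice, 4 of the 10 genes were called higher than in control mice and 0 lower. They were the ligand Angpt2, the receptors Flt1 and Tie1, and the co-receptor Eng. Of all 14993 genes tested, 4.68% were called in either direction and 3.13% were called higher. The median log2 fold change of the 10 genes was 0.35, beside -0.0024 over all genes tested, and 8 of the 10 were positive. Without the 3 mice of high choroid plexus score the median of the 10 genes was 0.15. Angpt2 had the highest fold change at the lowest level, while Vegfb, the most abundant gene of the axis, was not called. In a bulk sample, a change in the number of cells of a type and a change in RNA per cell cannot be told apart.

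**Figure D1:**
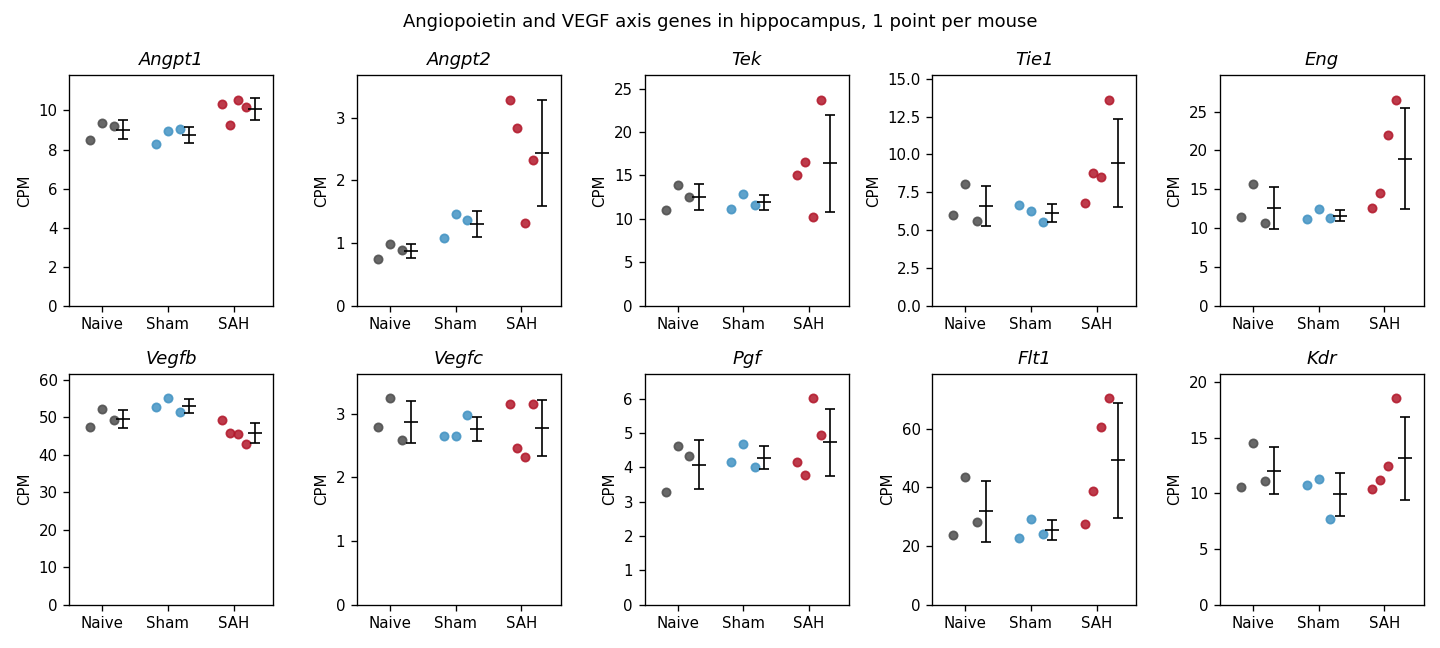
CPM of the 10 genes (vertical axes, from 0) in each of 3 Naive, 3 Sham and 4 SAH mice, with the mean and SD of each group beside its points. SAH points lie highest for Angpt2, Eng, Tie1 and Flt1, with at least 1 SAH mouse inside the control range for each of these named genes. The groups lie close together for Vegfc.

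Angpt2 (chr8:18690263-18741562, minus strand, 9 exons, mm9) was counted 68, 77, 26 and 58 times in SAH mice 1 to 4. It was counted 26, 40 and 34 times in Sham mice 5 to 7 and 20, 19 and 21 times in Naive mice 8 to 10. In CPM, the SAH mice had 3.29, 2.83, 1.31 and 2.32, the Sham mice 1.07, 1.47 and 1.37, and the Naive mice 0.752, 0.977 and 0.891. Thus 3 of 4 SAH mice lay above all 6 control mice, SAH mouse 3 lay among the Sham mice, and every Sham mouse lay above every Naive mouse. SAH mice averaged 2.44 ± 0.848 CPM (SD, n = 4) and control mice 1.09 ± 0.279 CPM (SD, n = 6). The change was 2.24-fold, a log2 fold change of 1.16 ± 0.25 (SE, edgeR adjusted p = 0.0246). The gene lies within the span of Mcph1 and overlaps none of its exons.

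Angpt1, the ligand with which Angpt2 competes (chr15:42256213-42508523, minus strand), had 10.3, 9.27, 10.6 and 10.2 CPM in SAH mice 1 to 4. The control mice ranged from 8.30 to 9.36 CPM with a median of 8.99, so that 3 of 4 SAH mice lay above them, by a small margin. Its log2 fold change of 0.18 ± 0.072 (SE) did not pass the test (edgeR adjusted p = 0.213). Within a library, there were 0.318, 0.306, 0.124 and 0.227 counts of Angpt2 per count of Angpt1 in SAH mice 1 to 4, and 0.0889 to 0.165 in control mice. The log2 ratio was 0.94 higher in SAH mice (2-sided exact permutation test over 210 splits, p = 0.0381, adjusted p = 0.0571 over 3 ratios). This ratio does not depend on how libraries were scaled. Against the Sham mice alone the difference in log2 ratio was 0.63 and against the Naive mice alone 1.25. With 4 mice against 3, the exact permutation test cannot give a p below 0.0571. The ratio missed the threshold without SAH mouse 1 (0.78), 2 (0.80) or 4 (0.94), each with an exact permutation adjusted p of 0.143. Without the 3 mice of high choroid plexus score the difference was 1.45, where 2 mice against 5 cannot give an exact permutation p below 0.0952 (adjusted p = 0.286).

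Of the angiopoietin receptors, Tie1 was called higher and Tek was not. Tie1 (chr4:118143796-118162454, minus strand) had 6.82, 8.75, 8.54 and 13.6 CPM in SAH mice 1 to 4, 6.64, 6.25 and 5.51 in Sham mice 5 to 7, and 6.02, 8.07 and 5.60 in Naive mice 8 to 10. SAH mice 2, 3 and 4 lay above all control mice and SAH mouse 1 did not. Its log2 fold change was 0.58 ± 0.17 (SE, edgeR adjusted p = 0.0871). Tek (chr4:94405980-94541667, plus strand) had 15.1, 16.5, 10.3 and 23.7 CPM in SAH mice, and 11.0 to 13.9 CPM in control mice. Here 3 SAH mice lay above and SAH mouse 3 below all control mice, and the log2 fold change of 0.44 ± 0.17 (SE) did not pass the test (edgeR adjusted p = 0.195). The log2 fold change of Tek was 0.61 ± 0.12 without SAH mouse 3 and 0.20 ± 0.13 without SAH mouse 4 (SE, edgeR adjusted p = 0.0129 and 0.449). The log2 ratio of Tie1 to Tek was 0.17 higher in SAH mice (2-sided exact permutation p = 0.438), -0.0057 without SAH mouse 3, and -0.11 without the 3 mice of high choroid plexus score.

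**Figure D2:**
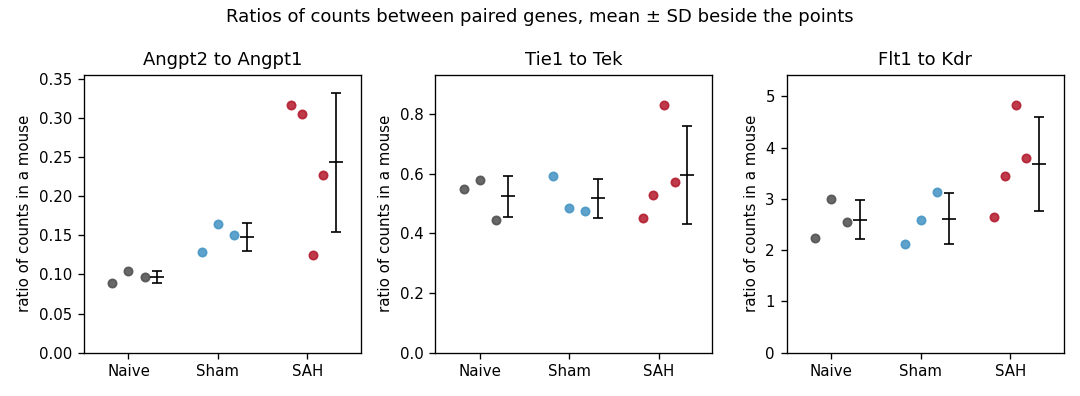
Ratio of counts within each mouse (vertical axes, from 0) for Angpt2 to Angpt1, Tie1 to Tek and Flt1 to Kdr in Naive, Sham and SAH mice, with the mean and SD of each group. In the panels of Angpt2 to Angpt1 and of Flt1 to Kdr, 3 of 4 SAH mice lie above all control mice.

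Of the VEGF receptors, Flt1 was called higher and Kdr was not. Flt1 (chr5:148373772-148537564, minus strand) had 27.4, 38.6, 60.4 and 70.3 CPM in SAH mice 1 to 4. The Sham mice had 22.9, 29.3 and 24.2 CPM, and the Naive mice 23.6, 43.6 and 28.3. Only SAH mice 3 and 4 lay above all control mice, since Naive mouse 9 was higher than SAH mice 1 and 2. SAH mice averaged 49.2 ± 19.7 CPM (SD, n = 4) and control mice 28.6 ± 7.76 CPM (SD, n = 6). The log2 fold change was 0.79 ± 0.23 (SE, edgeR adjusted p = 0.0975). Flt1 was not called by DESeq2 (adjusted p = 0.128), by the robust fit of edgeR (adjusted p = 0.204) or by edgeR with the Sham and Naive groups averaged (adjusted p = 0.106). Kdr (chr5:76329299-76374453, minus strand), had 10.3, 11.2, 12.5 and 18.5 CPM in SAH mice, only the last of them above the control range of 7.72 to 14.5 CPM. Its log2 fold change was 0.27 ± 0.17 (SE, edgeR adjusted p = 0.451), and 0.049 ± 0.15 without SAH mouse 4.

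The 2 VEGF receptors were compared within libraries. There were 2.64, 3.45, 4.84 and 3.79 counts of Flt1 per count of Kdr in SAH mice 1 to 4 and 2.12 to 3.14 in control mice, so 3 of 4 SAH mice lay above the control range. The log2 ratio was 0.48 higher in SAH mice (2-sided exact permutation p = 0.0381, adjusted p = 0.0571 over 3 ratios), with nearly the same difference against Sham alone (0.48) and Naive alone (0.48). It missed the threshold without SAH mouse 2 (0.50), 3 (0.34) or 4 (0.45), each with an exact permutation adjusted p of 0.143. Without the 3 mice of high choroid plexus score the difference was 0.28 (exact permutation adjusted p = 0.286).

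Eng (chr2:32502115-32538189, plus strand) had 12.6, 14.5, 21.9 and 26.5 CPM in SAH mice 1 to 4, 11.1, 12.4 and 11.3 in Sham mice and 11.5, 15.7 and 10.7 in Naive mice. As for Flt1, SAH mice 3 and 4 lay above all control mice and Naive mouse 9 above SAH mice 1 and 2. The log2 fold change was 0.65 ± 0.18 (SE, edgeR adjusted p = 0.0779). With 1 mouse left out it ranged from 0.43 to 0.80 and was called in 3 of 10 fits. Without the 3 mice of high choroid plexus score it was 0.16 ± 0.13 (SE, edgeR adjusted p = 0.728). Eng shares exon bases with Fpgs on the opposite strand, and the authors counted reads by strand. None of the 10 genes shares exon bases with a gene on its own strand.

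The VEGF ligands of the axis were not called. Vegfb (chr19:7056962-7062141, minus strand) had 49.3, 45.7, 45.5 and 42.9 CPM in SAH mice 1 to 4, against 52.8, 55.1 and 51.4 in Sham and 47.4, 52.1 and 49.3 in Naive mice. The values of SAH mice 2, 3 and 4 lay below all control mice, yet the log2 fold change was only -0.16 ± 0.053 (SE, edgeR adjusted p = 0.130). DESeq2, with the same size of change, called it lower (adjusted p = 0.0892). Pgf (chr12:86507589-86518263, minus strand) had 4.16, 3.79, 6.01 and 4.96 CPM in SAH mice, where the control range was 3.27 to 4.67 (log2 fold change 0.17 ± 0.14, SE, edgeR adjusted p = 0.567). The value for Pgf was 0.045 without SAH mouse 3, 0.27 without SAH mouse 2 and 0.11 without Naive mouse 8. Vegfc (chr8:55162886-55271808, plus strand) had 3.14, 2.46, 2.32 and 3.16 CPM in SAH mice, where the control range was 2.59 to 3.24 (log2 fold change -0.017 ± 0.13, SE, edgeR adjusted p = 0.962).

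Levels of different genes were set side by side as CPM per kilobase of exon. In control mice Vegfb had the highest level, 40.1 ± 2.10 (SD, n = 6), far from Flt1 at 4.56 ± 1.24. The ranges of Flt1 and Eng (3.39 ± 0.516) overlapped, and Eng lay apart from Tek (2.59 ± 0.241). Tek, Pgf, Angpt1, Kdr, Tie1 and Vegfc followed with overlapping ranges from one to the next, down to 1.50 ± 0.134 for Vegfc. Angpt2 was the lowest at 0.306 ± 0.0783, apart from Vegfc. In SAH mice the order began and ended with the same genes, and Angpt2 at 0.685 ± 0.238 (SD, n = 4) was still the lowest.

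Set against each control group in turn, the 10 genes were rarely called. Against the Sham mice 0 of 10 were called, where 0.72% of 15134 genes were. Angpt2 then had a log2 fold change of 0.90 ± 0.27 (SE, edgeR adjusted p = 0.245) and Flt1 of 0.95 ± 0.28 (SE, edgeR adjusted p = 0.237). Unadjusted p-values of edgeR were under 0.05 for 7 of the 10 genes in that comparison, and for 9.69% of all genes. Against the Naive mice Angpt2 alone was called, with a log2 fold change of 1.49 ± 0.30 (SE, edgeR adjusted p = 0.0255), where 2.99% of genes were. There, 4 of the 10 genes had an unadjusted p under 0.05 in edgeR, beside 14.8% of all genes. Between Sham and Naive mice 0 of 10 were called, where 0.00661% of all genes were. At an unadjusted p under 0.05 in edgeR there were 0 of 10, beside 2.02% of all genes. The difference in Angpt2 between Sham and Naive was 0.59 ± 0.33 on the log2 scale (SE, edgeR adjusted p = 1.00). These comparisons share mice. All 4 SAH mice lay above all 6 control mice for 2.83% of genes tested and for 0 of the 10.

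**Figure D3:**
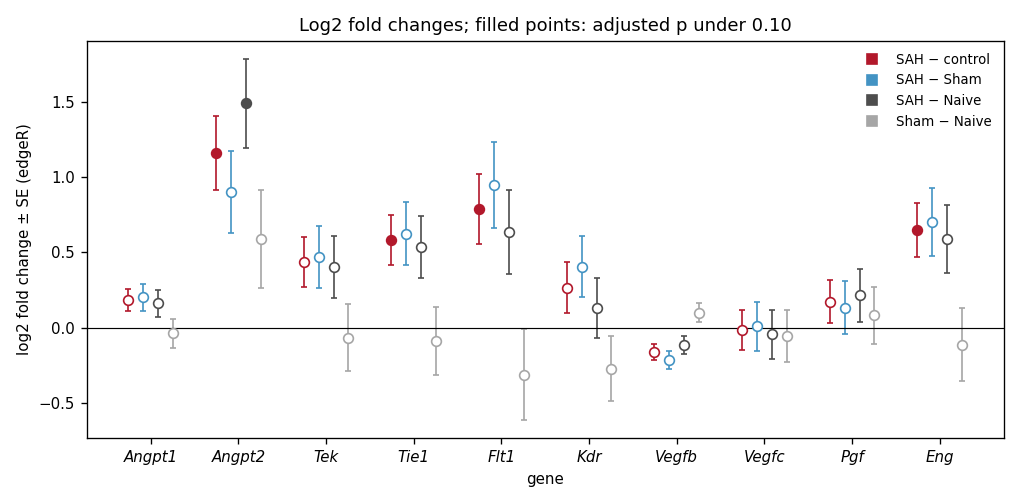
Log2 fold change with its SE (vertical axis) of each gene in 4 comparisons, with filled points where the adjusted p was under 0.10. Angpt2 is filled for SAH against control and against Naive mice, while Tie1, Flt1 and Eng are filled for SAH against control mice and open in the other comparisons.

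The 4 calls did not stand on equal footing. Angpt2 was called in each of the 10 fits that left out 1 mouse, with log2 fold changes from 1.00 to 1.35. Eng kept its call without SAH mouse 1 (0.80) or 2 (0.76) or Naive mouse 9 (0.73). It lost the call without SAH mouse 3 (0.58) or 4 (0.43), Sham mouse 5 (0.62), 6 (0.66) or 7 (0.63), or Naive mouse 8 (0.63) or 10 (0.61). Flt1 lost its call without the same 7 mice: SAH mouse 3 (0.68) or 4 (0.56), Sham mouse 5 (0.73), 6 (0.80) or 7 (0.75), or Naive mouse 8 (0.74) or 10 (0.79). Tie1 lost its call without SAH mouse 4 (0.35), any Sham mouse (0.60, 0.58 and 0.55 for mice 5 to 7) or Naive mouse 8 (0.57) or 10 (0.55). Eng also lost its call in the robust fit (edgeR adjusted p = 0.122) and Tie1 with the Sham and Naive groups averaged (edgeR adjusted p = 0.111). Adjusted p-values of edgeR in the fits without 1 mouse reached 0.234 for Tie1, 0.267 for Flt1 and 0.233 for Eng.

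Markers of endothelial cells were highest in the same SAH mice as Flt1 and Eng. Of 18 endothelial marker genes, which include none of the 10 genes of the axis, 7 were called higher and 0 lower, with a median log2 fold change of 0.43. Among them were Cdh5, the cadherin of endothelial junctions (0.84 ± 0.13, SE, edgeR adjusted p = 0.00385), and Pecam1 (0.70 ± 0.16, SE, edgeR adjusted p = 0.0331). Without the 3 mice of high choroid plexus score, 3 of 18 were called higher and the median was 0.20. With all mice, the summed level was 403 to 647 CPM in SAH and 338 to 431 CPM in control mice. As a score, the mean log2 difference from the control mean, the list stood at 0.052, 0.27, 0.68 and 0.73 in SAH mice 1 to 4, and between -0.13 and 0.20 in control mice, with Naive mouse 9 the highest control. Flt1 and Eng put the 4 SAH mice in this same order and had the same highest control mouse. Angpt2 put SAH mouse 1, with the lowest endothelial score of the 4, first.

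**Figure D4:**
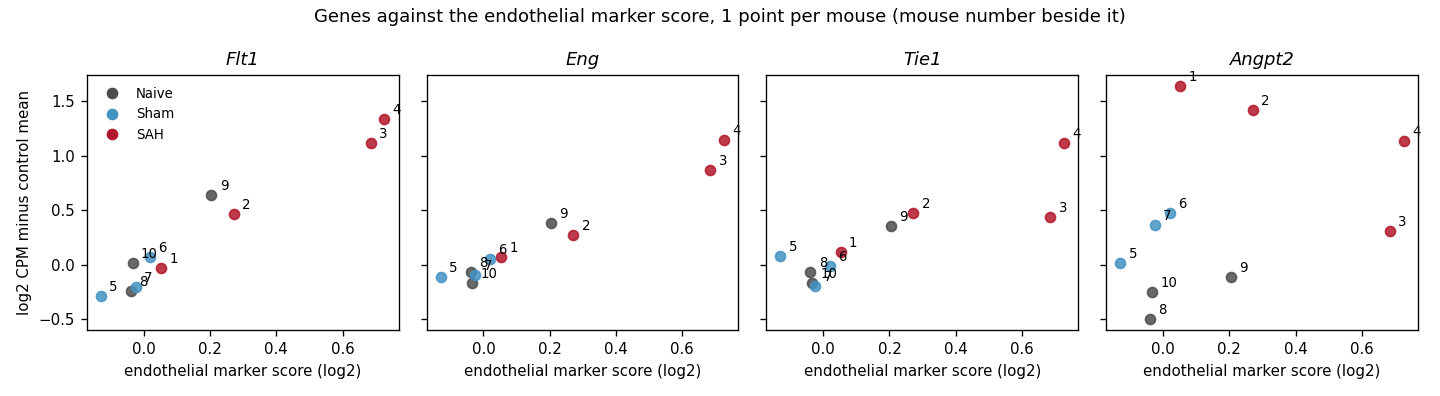
Log2 CPM minus the control mean (vertical axis) against the endothelial marker score (horizontal axis, log2) for Flt1, Eng, Tie1 and Angpt2, 1 numbered point per mouse, coloured by group. Flt1 and Eng are highest in SAH mice 3 and 4, which have the highest scores, while SAH mice 1 and 2 are the highest for Angpt2 at scores of 0.052 and 0.27.

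With the endothelial score in the model, 0.507% of all genes were called, and Angpt2 was called at a log2 fold change of 1.61 ± 0.31 (SE, edgeR adjusted p = 0.0405). The other 3 genes called did not, at 0.089 ± 0.19 for Tie1, -0.18 ± 0.11 for Flt1 and -0.084 ± 0.10 for Eng (SE, edgeR adjusted p = 0.997, 0.945 and 0.995). The score was itself higher in 3 of 4 SAH mice than in all control mice, so that the model divides a shared difference between both terms. Without the 3 mice that had the highest choroid plexus scores, 2.18% of all genes were called. This fit set 2 SAH mice, 1 and 2, against 5 control mice. Among the SAH mice these were the highest for Angpt2, at 3.29 and 2.83 CPM. They were the lowest for Flt1 (27.4 and 38.6 CPM) and Eng (12.6 and 14.5 CPM), so the values depend on which mice were kept. Angpt2 stood at 1.55 ± 0.23 (SE, edgeR adjusted p = 0.00217) and Tek was called at 0.37 ± 0.096 (SE, edgeR adjusted p = 0.0858). Tie1, Flt1 and Eng then stood at 0.28 ± 0.14, 0.19 ± 0.19 and 0.16 ± 0.13 (SE, edgeR adjusted p = 0.533, 0.808 and 0.728).

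**Figure D5:**
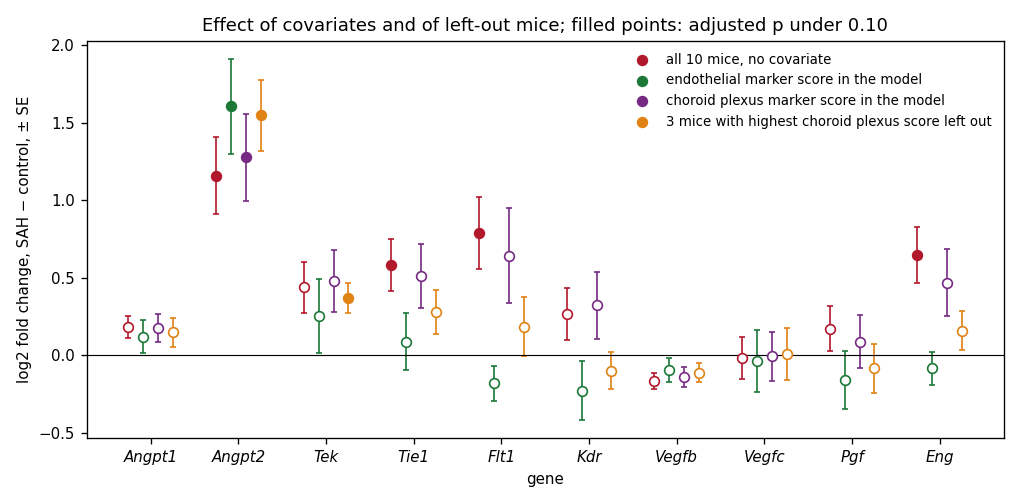
Log2 fold change in SAH against control mice with its SE (vertical axis) for each gene, with all 10 mice, with the endothelial or the choroid plexus score in the model, and without the 3 mice with the highest choroid plexus score. Points are filled where the adjusted p was under 0.10, which holds for Angpt2 under all 4. It holds for Tie1, Flt1 and Eng only with all 10 mice and no score, and for Tek only without the 3 mice.

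Markers of fibroblasts and meninges moved in an order like that of Angpt2. Of 10 such genes, 9 were called higher, and their summed level was 121 to 241 CPM in SAH and 102 to 143 CPM in control mice. Their scores were 1.56, 1.41, 0.32 and 1.05 in SAH mice 1 to 4, the order that Angpt2 took, and 0.26 to 0.30 in Sham mice, each above the 3 Naive mice. Without the 3 mice of high choroid plexus score 9 of 10 were again called higher. The part of these cells in the Angpt2 result was not tested. Arterial smooth muscle had 5 of 6 markers called higher, border macrophages 5 of 7, microglia 3 of 10, and pericytes, which make Angpt1, 1 of 10. These counts were, without the 3 mice, 2 of 6, 6 of 7, 1 of 10 and 1 of 10. Of choroid plexus markers 0 of 11 were called, with a median log2 fold change of 1.03, and of neuron markers 0 of 10. Oligodendrocyte markers were called lower for 9 of 9 genes and astrocyte markers higher for 1 of 10, and without the 3 mice for 8 of 9 and 2 of 10. Of 6 blood genes 1, Alas2, was tested and not called. The globin genes Hba-a1, Hba-a2, Hbb-b1 and Hbb-b2 had 0 counts in every mouse, so this list cannot gauge the blood in the tissue.

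Other genes of the same pathways were read from a list of 45, of which 41 were tested, 7 called higher and 1 lower, with a median log2 fold change of 0.14. Over all genes tested, 3.13% were called higher and 4.68% in either direction. Around endoglin, 4 of 10 tested genes were called higher and 0 lower. They were Acvrl1, which encodes its partner receptor ALK1 (0.74 ± 0.20, SE, edgeR adjusted p = 0.0716), Tgfbr2, the type II TGF-β receptor (0.41 ± 0.094, SE, edgeR adjusted p = 0.0326), and the target genes Id1 (0.64 ± 0.12, SE, edgeR adjusted p = 0.00961) and Id3 (0.53 ± 0.11, SE, edgeR adjusted p = 0.0243). Smad1, Smad5 and Smad9, which carry that signal to the nucleus, were not called, with log2 fold changes of 0.0067, -0.069 and 0.14. Ptprb encodes VE-PTP, the phosphatase that restrains TIE2, and was called higher (0.71 ± 0.17, SE, edgeR adjusted p = 0.0469).

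Among 5 other VEGF ligands and receptors, Flt4, which encodes VEGFR3, was called higher (1.14 ± 0.32, SE, edgeR adjusted p = 0.0862) and the co-receptors Nrp1 and Nrp2 were not, at -0.020 and -0.021. Of 11 endothelial effectors and transcription factors 1 was called higher, beside 3.13% of all genes tested, and 10 of 11 were positive. The gene called was Sox17, an arterial factor (1.20 ± 0.28, SE, edgeR adjusted p = 0.0365). Nos3, the endothelial nitric oxide synthase, stood at 0.62 ± 0.19 (SE, edgeR adjusted p = 0.107) and Erg at 0.39 ± 0.16 (SE, edgeR adjusted p = 0.224). Of 14 tested genes of endothelial Notch signalling and tip cells, 0 were called higher and 1 lower. Over all genes tested, 4.68% were called in either direction. The lower gene was Unc5b, a guidance receptor (-0.40 ± 0.088, SE, edgeR adjusted p = 0.0272), and the cells that carry it were not separated here. The Notch ligand Dll4 stood at 0.28 ± 0.19 (SE, edgeR adjusted p = 0.484). With the endothelial score in the model 0 of the 41 were called, beside 0.507% of all genes, and without the 3 mice of high choroid plexus score 2 were, beside 2.18%.

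After the mean of each group was taken off, Flt1 and Eng varied together among mice (Pearson r = 0.958 over 10 mice), as did Tie1 and Kdr (r = 0.916), while Angpt2 and Flt1 did not (r = -0.398). Among all genes tested, those most like Eng by this measure were Ptprb (r = 0.981), Ccm2l (r = 0.978) and Nptx1 (r = 0.968), and those most like Flt1 were Ptprb (r = 0.965), Acvrl1 (r = 0.958) and Anxa9 (r = 0.956). For Angpt2 they were Dad1 (r = 0.986), Slc13a3 (r = 0.973) and Fndc9 (r = 0.969). Picked as the highest among all genes tested, such values were also high for Vegfc, which was not called (Zfp935, r = 0.977). The genes of a mouse share its library and dissection, and these values are a description.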

How the data were processed

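The 10 genes and all lists were chosen with earlier results of these data known. The authors aligned 50-base read pairs to mm9 with STAR and counted them by gene name with featureCounts 1.6.2 (paired, reverse-stranded). The deposited values are raw counts per gene, without normalization. From these, CPM was computed after TMM scaling, and genes were tested with edgeR 4.0.16 (R 4.3.3) after filterByExpr (minimum count 10, minimum total 15) by its quasi-likelihood test, with p-values adjusted by Benjamini-Hochberg over all genes tested, at a threshold of 0.10. SAH was fitted against 6 pooled control mice, and pairwise contrasts came from a fit of 3 groups. An SE is the log2 fold change divided by the square root of F. The script was tested on simulated data. Alternatives were DESeq2 1.42.0, other scalings and filters, each mouse left out, each control group alone, and marker scores (mean log2 CPM, prior count 2) as covariates. For ratios, 2-sided exact permutation tests used all 210 splits of the mice, whose smallest p is 0.00952. Named genes were the 10 genes, pathway genes called or needed to describe their list, marker genes that define a cell type, and the 3 most correlated genes of a member. In all 45 pairs of libraries the counts differed by more than sampling noise. Each mouse is a separate animal, and depth limits Angpt2, counted at most 77 times in a library. Promoters were cut from the NCBIM37 (mm9) genome upstream of the first exon in the count tables and compared with GENCODE vM1 exons. Some promoter sequences are not reported here.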

Additional observations from a re-analysis of the deposited data

Results flagged for a closer look

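In 26 tests of CPM values or log2 ratios within a group for a single mouse far from the rest, 2 were past Dixon's 95% critical value for 6 samples (0.625), and chance flags about 1 in 20 groups. Both were Naive mouse 9. Its Flt1 level was 43.6 CPM, where the other 5 control mice had 22.9 to 29.3 CPM, and its Eng level was 15.7 CPM, where the others had 10.7 to 12.4 CPM. Its endothelial marker score of 0.20 was the highest of the control mice. Without it the log2 fold changes were 0.94 for Flt1 and 0.73 for Eng, and both were called by edgeR (adjusted p = 0.0516 and 0.0706).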

How the results depend on the processing

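Against 4 of the 10 genes called in SAH, 2 were called by the robust fit, by 3 groups with Sham and Naive averaged, or without the 3 mice of highest choroid plexus score, 1 with Naive mice alone, with either marker score or at an adjusted p under 0.05, and 0 with Sham mice alone or at 0.01. Over all genes, 701 were called in the fit reported, 679, 657 and 330 in the first 3 of these, 282 with Naive alone, 76 and 183 with the endothelial and choroid plexus scores, 369 at 0.05, 12 with Sham alone and 133 at 0.01. Leaving out 1 mouse gave 1 to 5 (2.05% to 7.25% of all genes). DESeq2 called 4 (3 higher, without Flt1, and Vegfb lower) and 6.39% of all genes. Of the other pathway genes, 8 in the fit reported, 0 were called with Sham alone or either marker score, 2 with Naive alone or without those 3 mice, 1 at 0.01, and 2 to 13 with 1 mouse left out. Against Sham, DESeq2 called 1 of the 10 genes and 299 of all, and leaving out 1 mouse gave 0 to 2 and 6 to 215 of all. Against Naive it gave 0 to 3 and 109 to 683 of all. Among the alternative fits of SAH against control at the 0.10 threshold, Angpt2 lost its call only with Sham alone (0.90, edgeR adjusted p = 0.453). Against Naive, 0 of the 10 genes were called without Naive mouse 8.

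Signs turned with the endothelial score for Flt1 (-0.18), Kdr (-0.23), Pgf (-0.16) and Eng (-0.084), without the 3 mice for Kdr (-0.098), Pgf (-0.082) and Vegfc (0.0077), and for Vegfc with Sham alone (0.0092) and with 1 mouse left out (-0.088 to 0.055). The cause was not tested. Ratio differences of Angpt2 to Angpt1 and Flt1 to Kdr missed the threshold with Sham alone (0.63 and 0.48, exact permutation adjusted p = 0.343) and Naive alone (1.25 and 0.48, adjusted p = 0.171), without the 3 mice (1.45 and 0.28, adjusted p = 0.286), and in 3 of the 10 fits with 1 mouse left out. Before adjustment, the exact permutation test cannot give a p below 0.0571 with 4 mice against 3, or below 0.0952 with 2 against 5. These ratio differences ranged from 0.78 to 1.23 and from 0.34 to 0.63 with 1 mouse left out. Tie1 to Tek ranged from -0.0057 to 0.29, and was -0.11 without the 3 mice. No paired analysis was possible because the animal numbers are not shared between groups.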
